A study of Homo sapiens with 18 samples.

Results

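The nuclear-encoded subunits of the mitochondrial respiratory chain were followed in human colorectal cancer cells grown in Matrigel with PLX4720, an inhibitor of the kinase B-Raf, or with its solvent DMSO. The members were chosen by name: 46 genes of complexes I to IV, of which 44 had a probe with that gene symbol on the array (26 of complex I, 3 of complex II, 6 of complex III and 9 of complex IV), out of 20046 genes named on it. The other 2, 1 of complex II and 1 of complex III, were not analysed here. The 44 genes were read by 52 of the 47323 probes.

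HT29 cells were kept with 3 µM PLX4720 or DMSO and sampled at days 1, 3 and 8, with 2 arrays in each of the 6 groups, described in the series' design text as biological duplicates. Colo-205 cells were sampled at days 1, 3 and 10 with 3 µM PLX4720 or DMSO, with 1 array in each of the 6 groups. Treatment began on day 5 of culture, and the day in a label was read as a day of treatment. All groups shared the Matrigel culture with 10% FCS, in DMEM for HT29 and in RPMI 1640 for Colo-205. Each cell line was on its own BeadChip, so line and BeadChip cannot be told apart. Each line is a single established line, and with bulk RNA fewer cells of a type and less RNA per cell cannot be told apart.

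The respiratory chain sits in the inner mitochondrial membrane and passes electrons from NADH and succinate to oxygen. Complex I takes electrons from NADH, complex II (succinate dehydrogenase, also an enzyme of the citric acid cycle) takes them from succinate, complex III passes them to cytochrome c, and complex IV hands them to oxygen. Complexes I, III and IV pump protons, and complex V, the ATP synthase, uses the gradient. Most subunits are made in the cytosol from nuclear genes and imported, and a small set is encoded in mitochondrial DNA. The factors NRF1 and GABP (an ETS family factor) are known regulators of many of the nuclear genes.

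Promoter sequences of 37 of the 44 genes were found in RefSeq (GRCh38.p14). The stretches just upstream of the annotated start are printed for 4 genes with large changes in the comparisons given later: SDHA, the 1 member that rose late in DMSO cells, and SDHD, UQCRC2 and NDUFB6, which fell there between days 3 and 8. Coordinates are chr5:218150-218319 on the plus strand for SDHA, chr11:112086753-112086872 on the plus strand for SDHD, chr16:21953241-21953360 on the plus strand for UQCRC2 and chr9:32573160-32573279 on the minus strand for NDUFB6. Capitals mark matches on either strand to the searched motifs.
SDHA: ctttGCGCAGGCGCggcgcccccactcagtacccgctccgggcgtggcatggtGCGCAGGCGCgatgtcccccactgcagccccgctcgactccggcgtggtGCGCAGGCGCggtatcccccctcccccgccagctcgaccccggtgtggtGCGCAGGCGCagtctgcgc
SDHD: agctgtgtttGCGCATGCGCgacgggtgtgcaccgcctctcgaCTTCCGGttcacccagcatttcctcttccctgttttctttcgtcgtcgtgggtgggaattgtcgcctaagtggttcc
UQCRC2: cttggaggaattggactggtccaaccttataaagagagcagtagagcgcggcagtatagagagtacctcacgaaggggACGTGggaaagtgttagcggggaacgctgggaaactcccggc
NDUFB6: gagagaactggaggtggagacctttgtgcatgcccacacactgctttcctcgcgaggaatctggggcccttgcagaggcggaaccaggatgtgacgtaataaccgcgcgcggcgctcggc

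The SDHA stretch held the NRF1 motif (GCGCA and GCGC with any 1 base between them) at 4 places, whose first bases lay at -166, -117, -68 and -19 from the start. SDHD held 1 NRF1 match and 1 match of the ETS motif CCGGAAG, read on the opposite strand as CTTCCGG. UQCRC2 held 1 match of the short hypoxia motif ACGTG, and NDUFB6 held none of the motifs in the stretch printed. Over the 250 bases before the start, the NRF1 motif was in 5 of the 37 member promoters (13.5%) and in 10.1% of the 10090 promoters of genes tested in HT29. The ETS motif was in 10 member promoters (27%, against 15.2% of all), ACGTG in 6 (16.2%, against 23.2%), and the E-box CACGTG, which contains ACGTG, in 1 (2.7%, against 8.72%). The YY1 motif AAGATGGCG was in 0 member promoters and in 0.932% of all. A match describes the letters of the window and is no evidence of binding, and no match says only that the letters are not there.

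The subunit mRNAs were among the bright and steady signals of the array. In HT29, 43 members passed the filter (a detection p under 0.01 on at least 2 arrays). NDUFS6 did not pass it. Of the 43, 42 were above background on all 12 HT29 arrays. Their mean log2 intensity had a median of 11.78, against 7.26 over the 12675 genes tested, and their pooled SD between duplicates had a median of 0.0954, against 0.185 for all genes. NDUFA5, NDUFS1 and NDUFC2 were dim (log2 between 4.43 and 7.08 over all arrays), and their values carried larger errors. Each of the 18 arrays had 38.3% to 41.4% of its probes above background, and duplicates correlated at 0.986 to 0.991. Of 8 epithelial markers, 7 in HT29 and 6 in Colo-205 were above background on every array. In HT29, 2 of the 8 were higher with PLX4720 at day 1 (VIL1 0.98 and KRT19 0.67) and 2 at day 3 (CDX2 0.84 and VIL1 0.49). At day 8, 2 were higher (CDX2 1.95 and VIL1 0.61) and 1 was lower (KRT19 -0.54). With PLX4720 over the 3 days of Colo-205, 0 of the 8 were higher and 2 lower, against 0.613% and 0.752% of all genes. In the drug effect of Colo-205 minus HT29, 0 were higher and 3 lower, against 1.55% and 2.45% of all genes. COL3A1 and PTPRC, which mark fibroblasts and blood cells, were above background on none. Of 10 non-epithelial markers, 5 were tested in HT29, and 1, 2 and 1 of them were higher with PLX4720 at days 1, 3 and 8 (ACTA2 and LUM). The summed intensity of the 10 was 933 to 1247 in PLX4720 cells against 845 to 888 in DMSO cells at day 1, 1224 to 1247 against 916 to 1002 at day 3, and 1134 to 1194 against 948 to 1063 at day 8. The sum adds linear intensities, so the bright markers weigh most. In HT29 CD68 read 8.40 to 9.34, ACTA2 6.55 to 8.66 and VIM 6.095 to 7.32 (log2). The other markers read at most 5.56. The part of the epithelial and non-epithelial markers in the results was not tested.

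**Figure D1:**
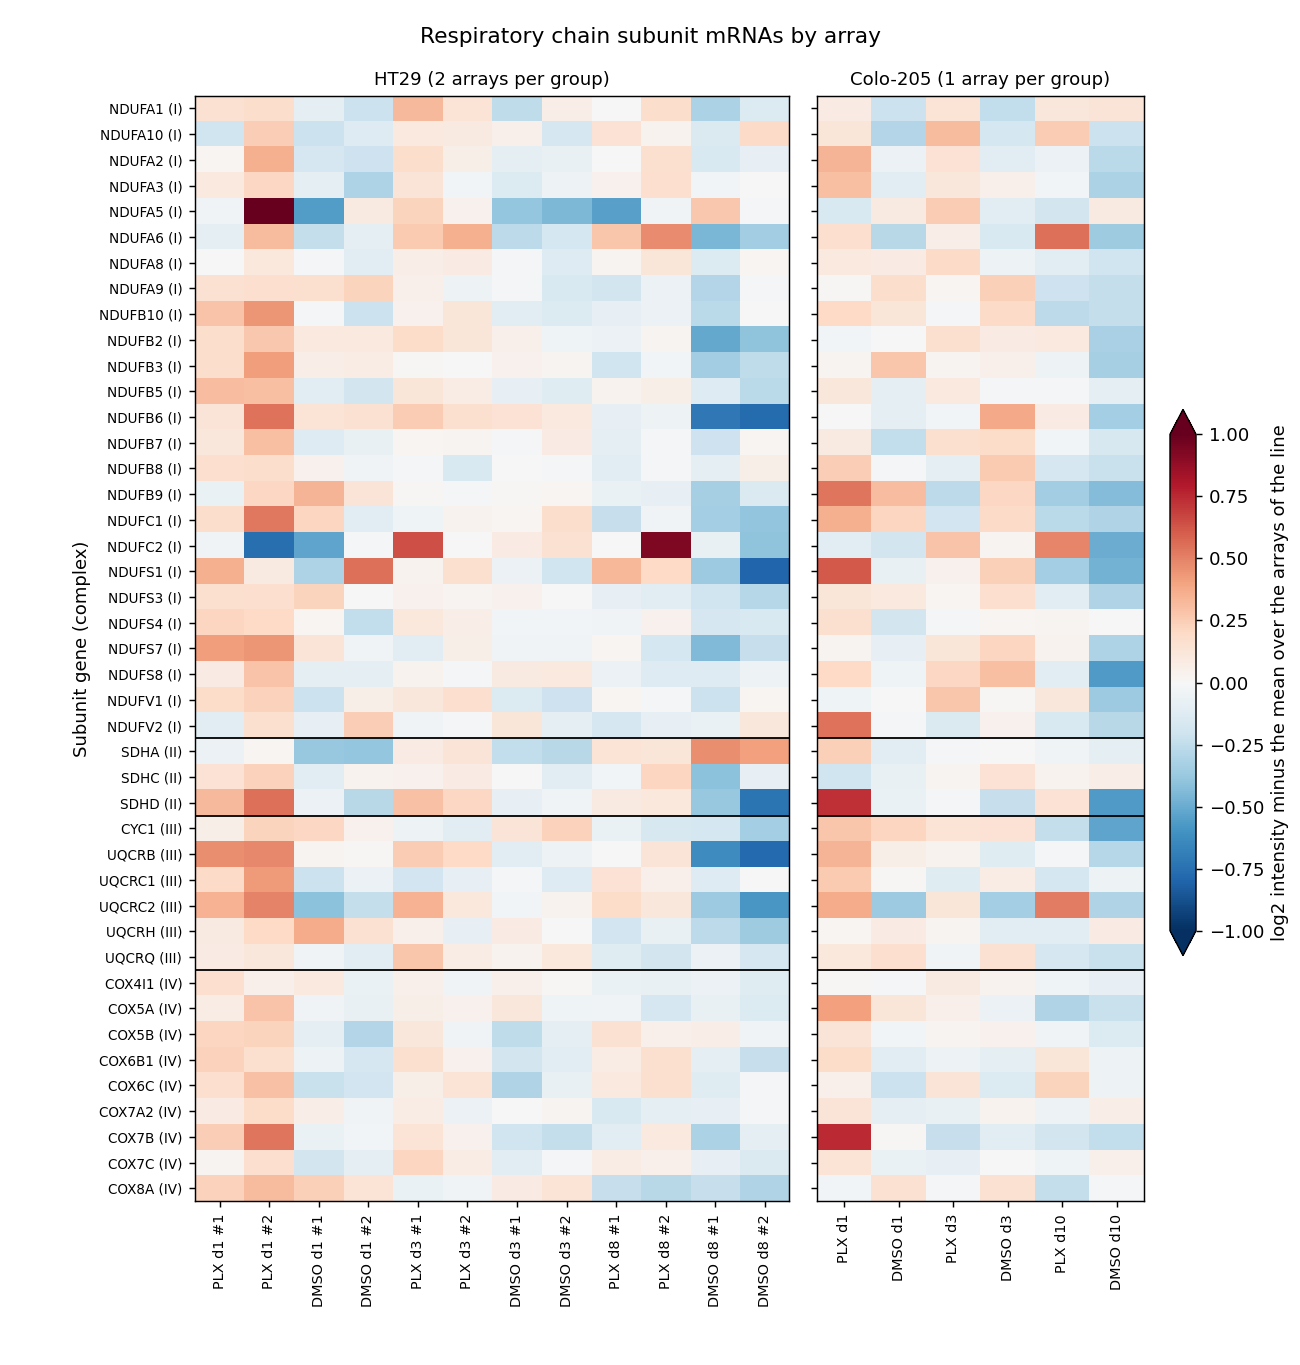
Log2 intensity of each tested subunit mRNA (rows, with the complex in brackets) on each array (columns), minus that gene's mean over the arrays of the same line. The median member lay 0.155 and 0.229 above its line mean on the PLX4720 day 1 arrays of HT29 and 0.177 and 0.141 below it on the DMSO day 8 arrays.

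On the first day of PLX4720, some subunit mRNAs of each of the 4 complexes were higher in HT29. Of 43 members, 9 rose and 0 fell (limma with Benjamini-Hochberg adjustment over 12675 genes, adjusted p under 0.05), which is 20.9% of them, against 22.6% of all genes called in either direction, 11.8% called higher and 10.8% called lower. The median member was 0.28 higher on the log2 scale, against 0.0044 over all genes, and 38 of 43 members had a positive difference, against 50.4% of all genes. On 28 members both PLX4720 arrays lay above both DMSO arrays and on 0 members below them, where 30.8% of all genes lay above and 29.6% below. The changes were modest: the called members were between 0.37 and 0.75 higher.

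The count of 9 at day 1 depended on single arrays and on the processing. It was 1 without the second replicate of either PLX4720 or DMSO, 5 without the first DMSO replicate and 6 without the first PLX4720 replicate. It was 4 with median scaling, 15 among genes detected on every array, 17 without background correction or with the authors' processed values, and 19 with an intensity trend in the variance model. On 37 of 43 members the second PLX4720 day 1 array lay above the first, and whether this array's offset enters the difference was not tested.

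In complex I, 2 of 25 members rose at day 1 (8%, against 11.8% of all genes called higher). They were NDUFB10 and NDUFB5, accessory subunits of the membrane arm. Levels on single arrays are log2 intensities, given as first and second replicate. NDUFB10 read 11.86 and 12.02 in PLX4720 cells, against 11.56 and 11.365 in DMSO cells. NDUFB5 read 12.38 and 12.37 in PLX4720 cells, against 11.96 and 11.885 in DMSO cells. The groups did not overlap for either gene, and the changes were 0.48 ± 0.13 (SE, adjusted p from limma 0.0291) and 0.45 ± 0.11 (adjusted p 0.0142). The core subunits that carry the flavin and iron-sulfur centres did not pass the test: NDUFV1 differed by 0.28 ± 0.13 (adjusted p 0.162) and NDUFS1 by 0.10 ± 0.26 (adjusted p 0.822).

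At day 3 NDUFA6 was the 1 complex I member that rose (4% of 25, against 8.95% of all genes called higher). At day 8 there were 3, NDUFA6, NDUFB6 and NDUFB2 (12%, against 7.33% of all genes). NDUFA6 is an accessory subunit of the matrix arm. It read 8.93 and 9.34 in PLX4720 cells against 8.79 and 8.93 in DMSO cells at day 1, 9.29 and 9.38 against 8.76 and 8.85 at day 3, and 9.31 and 9.50 against 8.57 and 8.68 at day 8. The groups overlapped at day 1 and were apart at days 3 and 8, with differences of 0.28, 0.53 ± 0.15 (adjusted p 0.0455) and 0.78 ± 0.15 (adjusted p 0.00875).

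NDUFB6, an accessory subunit of the membrane arm, read 10.60 and 10.64 in PLX4720 cells, against 9.97 and 9.915 in DMSO cells, at day 8. Both DMSO arrays lay apart from all 10 other HT29 arrays, which read between 10.60 and 11.23. The day 8 difference was 0.68 ± 0.14 (adjusted p 0.0110). NDUFB2, of the same arm, read 12.305 and 12.39 in PLX4720 cells, against 11.85 and 11.97 in DMSO cells, a difference of 0.44 ± 0.11 (adjusted p 0.0251). NDUFS1 differed by 0.84 ± 0.26 at day 8 and did not pass the test (adjusted p 0.0568).

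In complex II, 2 of 3 members (SDHA and SDHD) rose at day 1, SDHA at day 3 and SDHD at day 8. Of all genes, 11.8%, 8.95% and 7.33% were called higher at these days. SDHA, the flavin-carrying catalytic subunit, read 10.95 and 11.03 in PLX4720 cells, against 10.63 and 10.62 in DMSO cells, at day 1. At day 3 it read 11.09 and 11.14 in PLX4720 cells, against 10.76 and 10.73 in DMSO cells. At day 8 it read 11.14 and 11.125 in PLX4720 cells, against 11.47 and 11.41 in DMSO cells. The groups were apart at every day, with PLX4720 above DMSO at days 1 and 3 and below it at day 8.

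The SDHA differences were 0.37 ± 0.10 at day 1 (adjusted p 0.0298), 0.37 ± 0.10 at day 3 (adjusted p 0.0369) and -0.31 ± 0.10 at day 8 (adjusted p 0.0711). The drug effect at day 8 differed from that at day 1 by -0.68 ± 0.14 (adjusted p 0.0133) and from that at day 3 by -0.68 ± 0.14 (adjusted p 0.0226). SDHA was the 1 of 43 members that passed either test of a changing drug effect, where 16% of all genes passed the test of day 8 against day 1 (7.05% higher and 8.91% lower) and 8.46% that of day 8 against day 3 (3.54% higher and 4.92% lower). The second of these calls was lost without either day 3 array of either group or without either PLX4720 day 8 array. A second SDHA probe gave 0.249, 0.312 and -0.338 at the 3 days. Probes named for near-identical copies of SDHA, which could share signal with it, differed among themselves: at day 8 an SDHAP2 probe was at -0.508 and the brightest SDHAP1 probe at 0.387. The part of such copies in the SDHA signal was not tested.

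SDHD, one of the membrane anchors that bind ubiquinone, read 11.03 and 11.26 in PLX4720 cells at day 1, against 10.65 and 10.44 in DMSO cells. At day 3 it read 11.01 and 10.92 in PLX4720 cells, against 10.63 and 10.67 in DMSO cells, and at day 8 10.80 and 10.82 in PLX4720 cells, against 10.33 and 9.99 in DMSO cells. PLX4720 arrays were above DMSO arrays at all 3 days. The difference was 0.60 ± 0.15 at day 1 (adjusted p 0.0182) and 0.65 ± 0.15 at day 8 (adjusted p 0.0172), and 0.31 at day 3, which did not pass the test. SDHC, the other anchor, differed by 0.23, 0.12 and 0.34 at the 3 days, none past the threshold. A second, dimmer SDHC probe gave 0.126, -0.102 and 0.019.

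Complex III had 3 of 6 members higher at day 1, 0 at day 3 and 2 at day 8, against 11.8%, 8.95% and 7.33% of all genes. UQCRC2, a core subunit of the matrix side, had the biggest called change of all members at day 1. It read 10.435 and 10.585 in PLX4720 cells, against 9.68 and 9.85 in DMSO cells, at day 1, and 10.27 and 10.20 in PLX4720 cells, against 9.73 and 9.51 in DMSO cells, at day 8. The groups were apart at both days, by 0.75 ± 0.14 (adjusted p 0.00485) and 0.62 ± 0.14 (adjusted p 0.0147). Its partner core subunit UQCRC1 was 0.44 ± 0.13 higher at day 1 (adjusted p 0.0379).

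UQCRB, a small subunit near the ubiquinone site, read 11.145 and 11.16 in PLX4720 cells, against 10.71 and 10.695 in DMSO cells, at day 1. At day 3 it read 10.94 and 10.88 in PLX4720 cells, against 10.58 and 10.63 in DMSO cells, and at day 8 10.69 and 10.81 in PLX4720 cells, against 10.06 and 9.91 in DMSO cells. The groups were apart at every day. The differences were 0.45 ± 0.11 at day 1 (adjusted p 0.0176), 0.31 ± 0.11 at day 3 (adjusted p 0.0932) and 0.77 ± 0.11 at day 8 (adjusted p 0.0016). A probe named for the copy UQCRBP1 gave 0.485, 0.322 and 0.401 at the 3 days. CYC1, the haem-carrying cytochrome c1, had differences of 0.01, -0.26 and 0.15, none past the threshold.

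**Figure D2:**
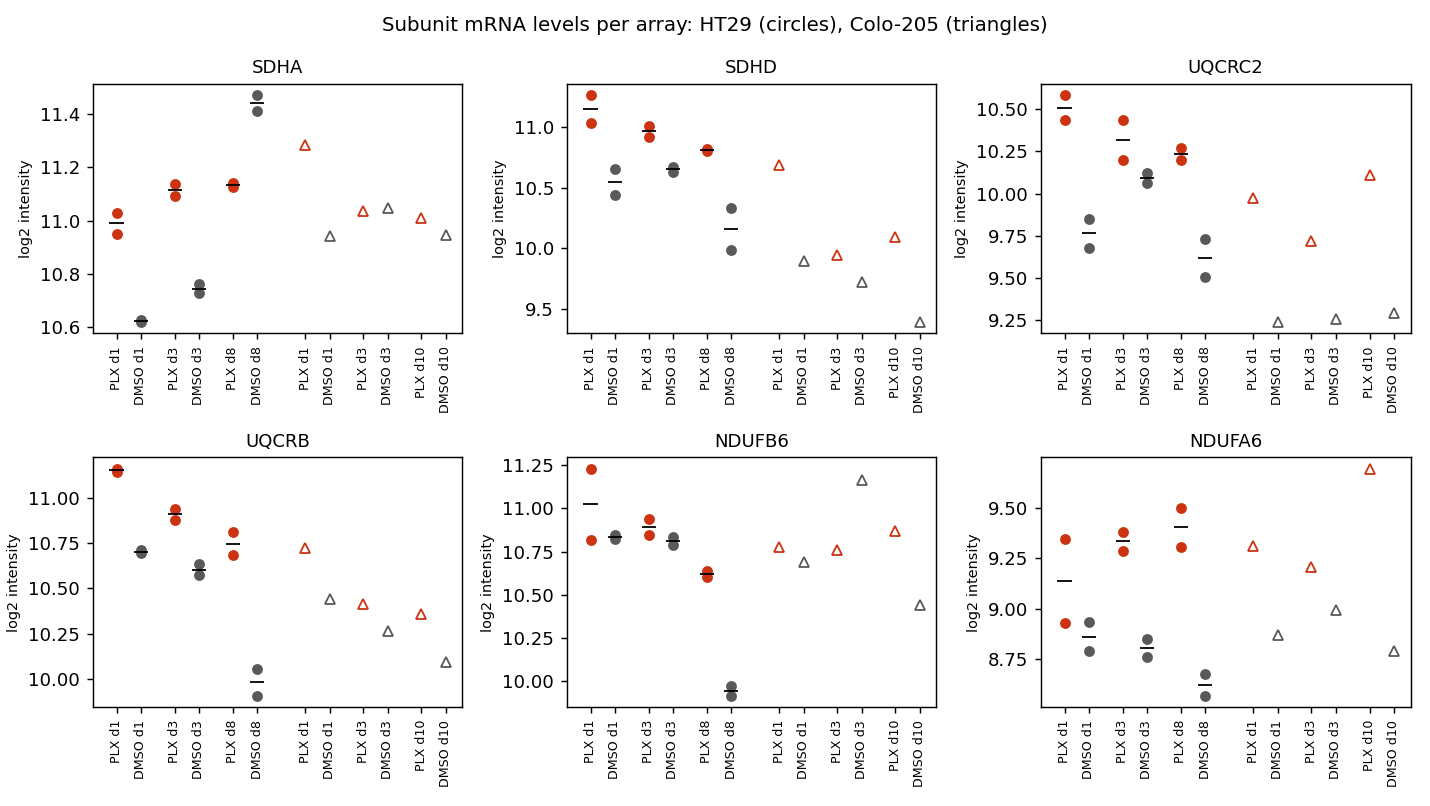
Log2 intensity on every array of 6 subunit mRNAs by treatment and day, for HT29 (circles, with the mean of 2 arrays as a line) and Colo-205 (open triangles, 1 array each), PLX4720 in red and DMSO in grey. SDHA is the panel in which DMSO day 8 arrays of HT29 are the highest, at 11.47 and 11.41. In the panels of SDHD, UQCRB, NDUFB6 and NDUFA6 the DMSO day 8 arrays of HT29 are the lowest HT29 arrays.

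In complex IV, 2 of 9 members rose at day 1, COX6C and COX5B, against 11.8% of all genes called higher. The count was 0 at days 3 and 8, against 8.95% and 7.33% of all genes. COX6C, a small membrane subunit, read 12.93 and 13.06 in PLX4720 cells, against 12.54 and 12.57 in DMSO cells, at day 1. COX5B, a subunit on the matrix side, read 13.18 and 13.19 in PLX4720 cells, against 12.87 and 12.68 in DMSO cells. The changes were 0.43 ± 0.12 (adjusted p 0.0303) and 0.41 ± 0.12 (adjusted p 0.0431). COX4I1, the regulatory subunit that binds ATP, differed by 0.09, -0.02 and 0.02 at days 1, 3 and 8, and COX5A by 0.23, 0.01 and 0.00, none past the threshold. COX6C at day 3 (0.28, adjusted p 0.149) and COX6B1 at day 8 (0.28, adjusted p 0.132) had the lowest p of the complex.

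Over all members, PLX4720 raised 2 of 43 at day 3, against 16.5% of all genes called, 8.95% higher and 7.54% lower. It raised 6 of 43 at day 8, against 16% of all genes called, 7.33% higher and 8.62% lower. No member fell at any day by this test, and the trend model called 1 lower at day 8, beside 9 higher. The median difference was 0.14 at day 3 and 0.16 at day 8, with 30 and 36 of 43 members positive. PLX4720 arrays lay above DMSO arrays on 24 members at day 3 and below on 5, where 31.6% and 31% of all genes did so. At day 8 they lay above on 26 members and below on 4, where 28.5% and 28% of all genes did so. The count at day 3 was 0 without any 1 of its 4 arrays or without the filter, 1 with median scaling or with the mean of probes, and 6 with the trend. The count at day 8 was 1 without the second PLX4720 replicate, 2 without the first, 3 without the second DMSO replicate, 5 without the first, and 10 with the trend.

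**Figure D3:**
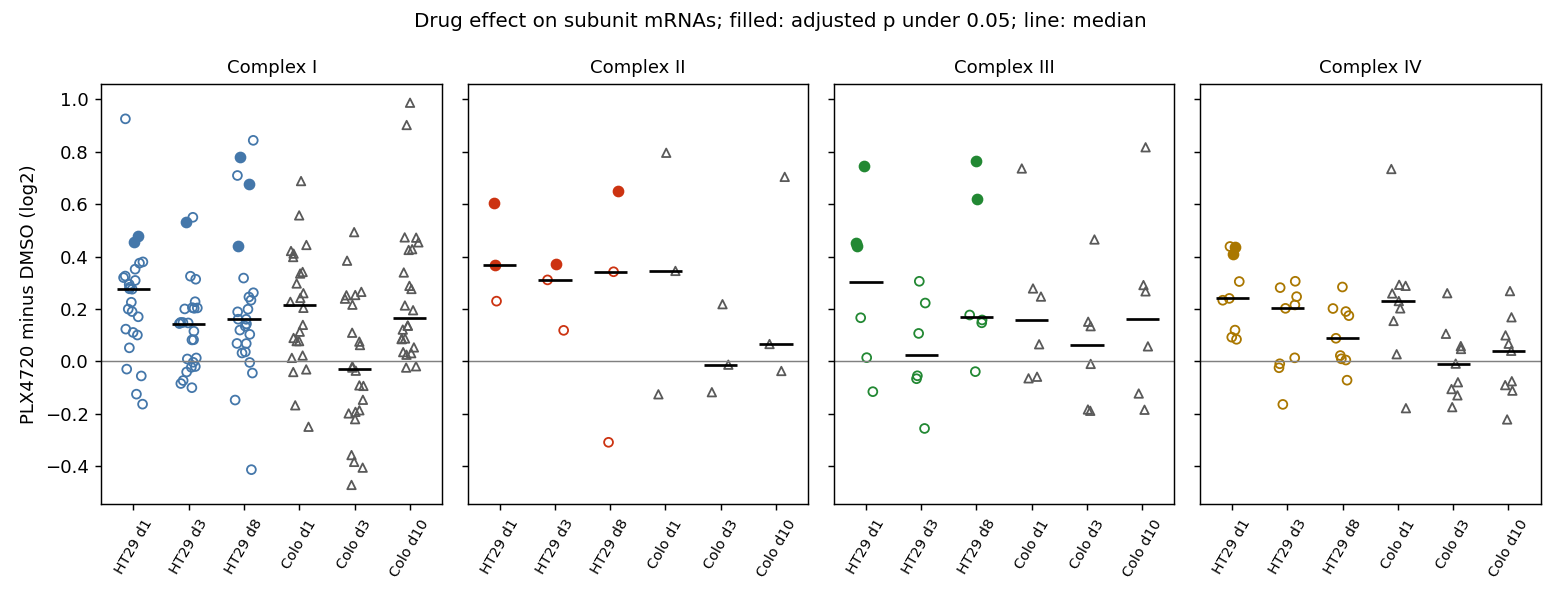
Difference of PLX4720 minus DMSO (log2) for each member, by complex, at days 1, 3 and 8 in HT29 (circles, filled at an adjusted p under 0.05) and at days 1, 3 and 10 in Colo-205 (open triangles, single arrays without a test), with the median as a line. At day 1 the HT29 medians are 0.28, 0.37, 0.30 and 0.24 for complexes I to IV, and SDHA is the complex II point at -0.31 at day 8.

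DMSO cells changed late in culture. Between days 1 and 3, 0 of 43 members passed the test (limma), against 2.3% of all genes (1.99% higher and 0.316% lower). An unadjusted p under 0.05 was found for 1 (UQCRC2), without a count of all genes at that threshold. The complex members with the lowest p, NDUFA9 (-0.27), SDHA (0.12), UQCRC2 (0.33) and COX7B (-0.17), had adjusted p from 0.323 to 0.664. At day 8 against day 3, 1 member (SDHA) was higher and 7 were lower, against 34.5% of all genes called, 18.4% higher and 16.1% lower. At day 8 against day 1, SDHA was higher and 10 members were lower, against 42.4% of all genes called, 22% higher and 20.4% lower. The 11 called members were 25.6% of the 43. Cell type markers moved over the same days: of 8 epithelial markers 5 were higher (KRT19 1.47, CDH1 1.11 and VIL1 0.99 among them) and KRT18 was lower (-0.79), and of the 5 tested non-epithelial markers ACTA2 was higher (1.01) and VIM lower (-0.85). Their part in the change over time was not tested.

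The members lower in DMSO cells at day 8 than at day 1 were 6 of complex I (NDUFB6, NDUFB2, NDUFB9, NDUFS7, NDUFB3 and NDUFS3), 3 of complex III (UQCRB, UQCRH and CYC1) and COX8A of complex IV. NDUFB6 averaged 0.89 ± 0.14 lower at day 8 (log2 change -0.89, adjusted p 0.000899), with 9.97 and 9.915 at day 8, against 10.82 and 10.84 at day 1. UQCRB had a change of -0.72 ± 0.11 (adjusted p 0.00075), with 10.06 and 9.91 at day 8, against 10.71 and 10.695 at day 1. The second UQCRB probe gave -0.881 and the third, dim one 0.374. The UQCRBP1 probe gave -0.103. UQCRH, the hinge subunit of complex III, had a change of -0.57 ± 0.12 (adjusted p 0.00512), with 12.96 and 12.87 at day 8, against 13.59 and 13.38 at day 1. A probe named for the copy UQCRHL gave -0.186, and the part of these copies in either signal was not tested.

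The days did not overlap for these genes. NDUFB2 changed by -0.55 ± 0.11 (adjusted p 0.00308), CYC1 by -0.38 ± 0.12 (adjusted p 0.0319) and COX8A, a small subunit of complex IV, by -0.45 ± 0.11 (adjusted p 0.0075). SDHD and UQCRC2 passed the test of day 8 against day 3 (-0.49 and -0.48) and not that of day 8 against day 1 (-0.39 and -0.15). SDHA in contrast was 0.82 ± 0.10 higher at day 8 than at day 1 (adjusted p 0.000233) and 0.70 ± 0.10 higher than at day 3 (adjusted p 0.000993), and its second probe was 0.912 higher than at day 1. An SDHAP2 probe was 1.57 higher at day 8 than at day 1, and the brightest SDHAP1 probe 0.515 higher. Other SDHAP1 probes above background on all 12 HT29 arrays went both ways, from -2.158 to 1.079.

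Of the 43 members, DMSO day 8 arrays lay below both day 1 arrays for 17 and above them for 5, where 32.7% and 34.6% of all genes did so. The median change from day 1 was -0.06, against 0.02 over all genes. With 1 array left out, between 7 (without the first DMSO day 1 replicate) and 10 members were called. The count of 8 against day 3 was 3 without the first DMSO day 3 replicate, 4 without the second DMSO replicate of day 3 or of day 8, and 13 without background correction or with the trend.

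In PLX4720 cells, at day 8 against day 1, 0 members rose and 3 fell, COX8A, NDUFS7 and UQCRB, against 16.2% of all genes called, 8.65% higher and 7.51% lower. The called members were 6.98% of the 43. The median was -0.24, with 37 of 43 members negative. Of the 43 members, SDHA was the 1 whose change over time differed between PLX4720 and DMSO cells by the test of the drug effect at day 8 against day 1. COX8A read 12.86 and 12.81 at day 8, against 13.32 and 13.41 at day 1, a change of -0.53 ± 0.11 (adjusted p 0.00979). NDUFS7, a core iron-sulfur subunit of complex I, changed by -0.50 ± 0.13 (adjusted p 0.0286) and UQCRB by -0.40 ± 0.11 (adjusted p 0.0349). Under the alternatives run, the UQCRB change ranged from -0.503 to -0.105. SDHA changed by 0.15, and SDHD by -0.34, which did not pass the test (adjusted p 0.377 and 0.157). The count of 3 was 0 without the second PLX4720 replicate of day 1 or of day 8, 1 without the first of day 8, and between 5 and 15 under 7 other settings. The PLX4720 time course and the day 1 and day 8 drug effects share arrays, so their values are given side by side and not as separate evidence.

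**Figure D4:**
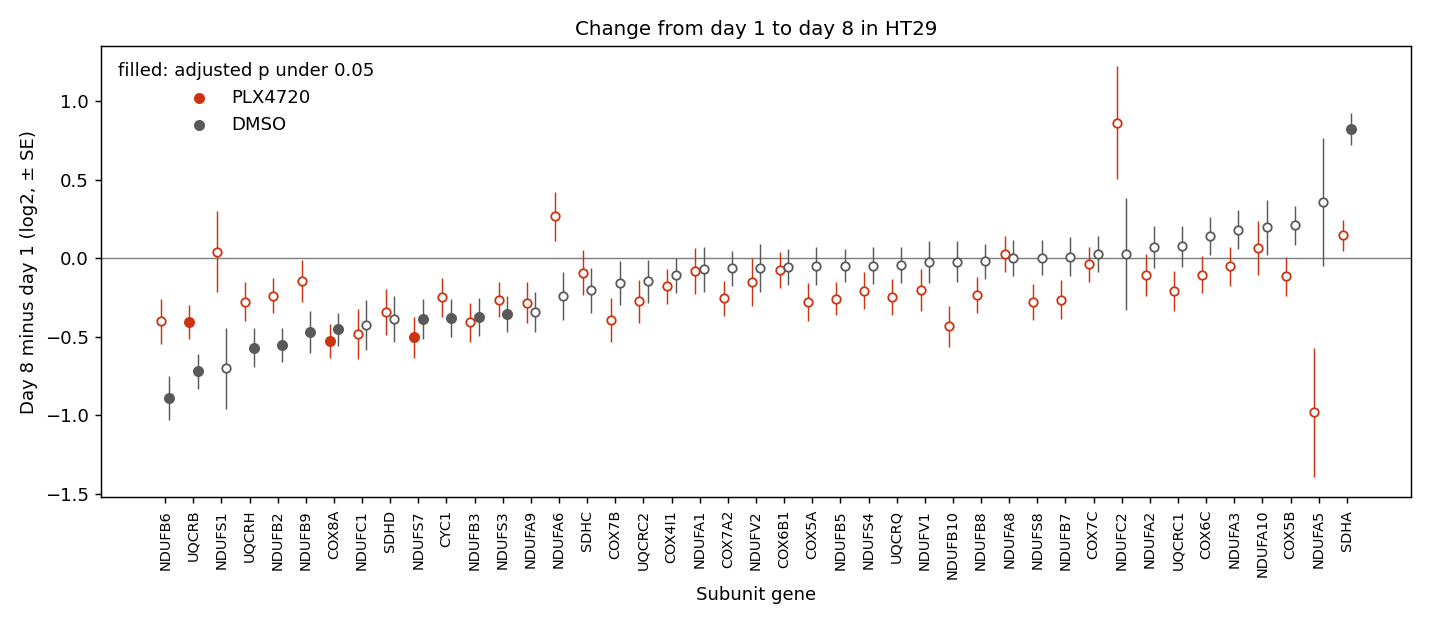
Change from day 1 to day 8 (log2, with the standard error of the fit) of each tested member in HT29, ordered by the change in DMSO cells, for PLX4720 cells (red) and DMSO cells (grey), filled at an adjusted p under 0.05. NDUFB6 stands lowest at -0.89 and SDHA highest at 0.82 in DMSO cells, and the widest error bars belong to the dim probes of NDUFA5, NDUFC2 and NDUFS1.

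The drug effect of other members was not shown to differ between days. The differences of the drug effect at day 8 from that at day 1 with the lowest p in complexes I, III and IV were 0.49 for NDUFB6 (adjusted p 0.134), 0.32 for UQCRB (adjusted p 0.21) and -0.32 for COX5B (adjusted p 0.261). Against day 3 they were 0.60 for NDUFB6 (adjusted p 0.101), 0.46 for UQCRB (adjusted p 0.104) and 0.17 for COX8A (adjusted p 0.521). NDUFA5, a dim probe, had drug effects of 0.93, 0.55 and -0.41 by day, none past the threshold. One of its arrays, the second PLX4720 replicate of day 1, read 6.44, against 4.43 to 5.29 on the other 17 arrays.

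In Colo-205 the design gives no replicate within a day, so the 3 days served as replicates of the drug effect. Of 42 members tested, 0 passed the test (limma, day as a block), against 1.37% of all 11575 genes (0.613% higher and 0.752% lower). At an unadjusted p under 0.05 there were 4 (UQCRC2, SDHD, NDUFA10 and NDUFA6). All genes were not counted at that threshold, so this count has no share to be set against. After adjustment, 1 passed without background correction or with the authors' processed values. The median difference was 0.12, with 32 of 42 members positive, against 52.8% of all genes. UQCRC2 had the lowest p in complex III: it read 9.97, 9.72 and 10.11 in PLX4720 cells at days 1, 3 and 10, against 9.24, 9.255 and 9.29 in DMSO cells. All 3 PLX4720 values were above all 3 DMSO values, with a difference of 0.67 and an adjusted p of 0.133.

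SDHD in Colo-205 read 10.69, 9.94 and 10.10 in PLX4720 cells, against 9.89, 9.72 and 9.39 in DMSO cells, a difference of 0.57 (adjusted p 0.215). It was higher with PLX4720 on each day, and the sets of values overlapped. NDUFA10 differed by 0.46 (adjusted p 0.226) and COX6C by 0.26 (adjusted p 0.456). SDHA differed by 0.345 at day 1, -0.013 at day 3 and 0.066 at day 10. Over the members, 34 of 42 were higher with PLX4720 at day 1 (median 0.229), 18 at day 3 (median -0.016) and 33 at day 10 (median 0.110), where 50.7%, 50.5% and 54% of all genes were higher. On all 3 days alike, 13 members were higher and 2 lower, where 22.2% of all genes were higher and 18.8% lower.

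DMSO cells of Colo-205 were compared over time as single arrays without a test. At day 10, 11 of 42 members were higher and 31 lower than at day 1, with a median of -0.219, against -0.013 over all genes. SDHD was 0.5 lower on the log2 scale (9.39 at day 10 and 9.89 at day 1), and SDHA was at 0.004. At day 3, 29 members were higher and 13 lower than at day 1, with a median of 0.062.

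The test of Colo-205 minus HT29 (limma) compared the drug effect of each line averaged over that line's days. These averages were not shown to differ for any member: 0 of 43 passed, against 4% of 13659 genes (1.55% higher and 2.45% lower). Among members, 0 had an unadjusted p under 0.05, without a count of all genes at that threshold. Whether the lines differed on single days was not tested. For SDHA the HT29 effects by day of 0.37, 0.37 and -0.31 entered as their average, and the line difference was -0.01. The differences with the lowest p were NDUFA10 (0.32, adjusted p 0.371), SDHC (-0.32, adjusted p 0.32), UQCRB (-0.28, adjusted p 0.414) and COX7C (-0.20, adjusted p 0.533). The NDUFA10 probe used had HT29 drug effects of 0.199, 0.146 and 0.068 at days 1, 3 and 8. A second NDUFA10 probe gave 0.5, 0.297 and 0.38. Levels in DMSO cells are a description, since line, medium and BeadChip changed together. Of 43 members, 14 were higher and 11 lower in Colo-205 on all 3 arrays than on all 6 of HT29, where 16.6% and 16.8% of all genes were. UQCRC1 read 11.03 to 11.15 in Colo-205, against 9.996 to 10.22 in HT29. NDUFB9, an accessory subunit of complex I, read 10.64 to 11.39 in Colo-205, against 11.98 to 12.65 in HT29.

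Other genes of the pathway were read in the same HT29 arrays. The 42 tested assembly factors, which help build the complexes, had 2 higher and 8 lower with PLX4720 at day 1, with a median of -0.11. For these and the lists that follow, 11.8% of all genes were called higher and 10.8% lower at day 1. Those with the largest changes were NDUFAF4 (-1.06 ± 0.13, adjusted p 0.000695), NDUFAF2 (-1.02 ± 0.16, adjusted p 0.00256) and COA7 (-0.99 ± 0.13, adjusted p 0.0011). At day 3, 2 assembly factors were higher and 4 lower (median -0.13), against 8.95% and 7.54% of all genes. The direction turned at day 8, with 6 higher and 1 lower (median 0.18), against 7.33% and 8.62%. NDUFAF4 was then 0.78 higher with PLX4720 (adjusted p from limma 0.00386). Of 14 regulators of mitochondrial biogenesis, 0 were higher and 5 lower at day 1: MYC (-1.49), PPRC1 (-1.37), TWNK (-1.14), GABPB1 (-0.79) and TFAM (-0.64). MYC is a growth-promoting transcription factor, PPRC1 a coactivator related to PGC-1, TWNK the helicase of mitochondrial DNA, GABPB1 a part of GABP and TFAM the packaging factor of mitochondrial DNA. The 9 called subunits were higher on the same arrays on which these 5 genes were lower.

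Of 16 ATP synthase genes, 3 were higher and 0 lower with PLX4720 at day 1 (ATP5PO 0.44, ATP5MC2 0.43 and ATP5F1E 0.37). Of 14 citric acid cycle and pyruvate dehydrogenase genes, SUCLG2 was higher (0.68) and IDH3A lower (-0.77). Of 13 other subunits of complexes I, III and IV, 0 were higher and UQCR11 was lower (-0.83). The 8 checked outputs of the MAPK pathway, which B-Raf drives, had 7 lower at day 1 and a median of -1.90. They had 7 lower at day 3 (median -1.17) and 4 lower at day 8 (median -0.63), against 7.54% and 8.62% of all genes. In the drug effect of day 8 minus day 1, 5 of the 8 were higher, against 7.05% of all genes. In DMSO cells 4 of the 8 were lower and 1 higher at day 8 than at day 1, against 20.4% and 22% of all genes.

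In DMSO cells at day 8 against day 1, where 22% of all genes were called higher and 20.4% lower, 5 assembly factors were higher and 20 lower (NDUFAF4 -2.02, COA7 -1.50, NDUFAF2 -1.47). Of the regulators 0 were higher and 7 lower (GABPB1 -1.65, MYC -1.51 and PPRC1, adjusted p 0.000358), of the citric acid cycle genes 1 was higher and 7 lower (citrate synthase CS -1.08), of ATP synthase 0 and 5, and of the other subunits 0 and 7 (UQCR10 -1.53). Of 7 genes linked to hypoxia-inducible factor, 5 were higher and 0 lower: EGLN3, PDK1, BNIP3L (2.79), PDK3 (1.68) and MXI1 (0.93). EGLN3, an oxygen-sensing hydroxylase, was not well above background at day 1 and was at least 7.54-fold higher at day 8. PDK1, a kinase that inhibits pyruvate dehydrogenase, was not well above background at day 1 and was above it on 1 of the 2 arrays at day 8, where it was at least 1.58-fold higher (adjusted p 0.0461). At day 8 EGLN3 was at least 7.95-fold lower with PLX4720 than with DMSO. The day 8 changes with PLX4720 were -1.85 for BNIP3L and -1.45 for PDK3. At day 1 both genes were higher with PLX4720, BNIP3L by 0.71 (adjusted p from limma 0.00768) and PDK3 by 0.80 (adjusted p 0.00581). "At least" sets the mean of the bright group against the lowest signal well above background on each array of the dim group.

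COXFA4L2 (also NDUFA4L2), a paralogue of a complex IV subunit that is known to be induced by hypoxia, was not a member. In HT29 it read 4.54 and 4.51 in PLX4720 cells, against 4.32 and 4.36 in DMSO cells, at day 1. At day 3 it read 4.50 and 4.35 in PLX4720 cells, against 5.57 and 6.595 in DMSO cells, and at day 8 4.365 and 4.48 in PLX4720 cells, against 11.99 and 11.82 in DMSO cells. It was above background in DMSO cells at days 3 and 8 and on 0 of the PLX4720 arrays of those days, so it was at least 173-fold lower with PLX4720 at day 8 (adjusted p 8.88e-07) and at least 2.95-fold lower at day 3. In Colo-205 at day 10 it read 4.53 in PLX4720 cells, against 10.00 in DMSO cells.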

How the data were processed

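Total RNA of 18 Matrigel cultures was hybridised to 2 Illumina BeadChips after biotin labelling, per the labels. One deposited table, not normalized by the authors, has a linear intensity and a detection p-value per probe and array, per the file headers. The sources used here do not say how the detection p-values were derived. A second deposited table, with the authors' own processing of the intensity (linear, normalization unstated), served as an alternative. The header of 1 intensity column (HT29, PLX4720, day 8, first replicate) carries the word mean, and it was used as a single array. A missing value removed 4 probes.

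Intensities were corrected for background in limma 3.58.1 (R 4.3.3) by normexp with the detection p-values and an offset of 16. They were then put on the log2 scale and quantile normalized over 18 arrays. The correction enlarges differences of dim probes and the offset shrinks them. Each gene was read by its brightest probe. All tests were limma fits with eBayes over all genes, adjusted by Benjamini-Hochberg, with calls at an adjusted p under 0.05: 1 fit of 6 group means for HT29, day as a block for Colo-205, and both lines together for the line difference. The line difference compared drug effects averaged over the days of each line. The code was tested on simulated data. Precision is limited by the number of arrays: the median SE of a day's difference was 0.179 in HT29. Probe names came from the platform annotation, updated through Entrez identifiers to RefSeq (99.9% matched): 30113 probes had 1 symbol, 8 had several and 17202 had none listed.

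Members, gene lists and tests were chosen with earlier results of these data known. Core subunits were named in any case, and otherwise the largest called changes per complex and comparison, or the lowest p where none was called. Further called members, dim probes and copies were named after their values were seen. Alternatives covered the background correction, offset, normalization, values, filter, probe choice, replicate block and left-out arrays. The trend in the variance model was added after seeing the data. Mitochondrially encoded subunits had 0 listed probes and were not analysed here.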

Additional observations from a re-analysis of the deposited data

Results flagged for a closer look

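The drug effect of SDHA in HT29 differed between days by a test of the difference itself: it was -0.68 at day 8 minus day 1 and -0.68 at day 8 minus day 3 (log2, limma interaction contrasts). The drug effect of COXFA4L2 also differed, by -7.67 against day 1 and -5.82 against day 3; its probe was not well above background in PLX4720 cells, so these fitted values depend on the background correction. The drug effect of MYC differed the other way, by 1.79 against day 1 and 1.36 against day 3. Colo-205 has 1 array per group, and the HT29 groups of 2 arrays are too small for a check of single outlying arrays.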

How the results depend on the processing

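The median change of the members kept its direction under the alternatives run in 10 of 11 comparisons. The exception was DMSO day 3 against day 1, with 0.0027 and a range of -0.047 to 0.029. The median of DMSO day 8 against day 1 ranged from -0.188 (median scaling) to -0.032. Counts of members called moved by over 1.5 times as follows. Without background correction, 17 members passed at day 1, 3 in the drug effect of day 8 minus day 3, 13 in DMSO cells at day 8 against day 3, 8 in PLX4720 cells at day 8 against day 1, and 1 in Colo-205. With the authors' values the counts were 17 at day 1, 2 for the drug effect of day 8 minus day 3, 9 in PLX4720 cells over time and 1 in Colo-205. With median scaling they were 4 at day 1, 1 at day 3 and 7 in PLX4720 cells over time. PLX4720 cells over time had 5 with normexp fitted without detection p-values, 8 with an offset of 50 and 7 among genes detected on every array, where day 1 had 15. Day 3 had 0 without the filter and 1 with the mean of probes. With the trend, chosen after seeing the data, counts were 19, 6 and 10 at days 1, 3 and 8, 2 and 3 for the drug effects of day 8 minus days 1 and 3, 13 in DMSO cells at day 8 against day 3, and 15 in PLX4720 cells over time. The cause was not tested.

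With 1 array left out, counts ranged from 1 to 6 at day 1, 0 to 0 at day 3, 1 to 5 at day 8, 1 to 2 and 0 to 1 for the changing drug effect against days 1 and 3, 3 to 8 and 7 to 10 in DMSO cells at day 8 against days 3 and 1, and 0 to 4 in PLX4720 cells over time. The lone array of a group was then assumed to vary like the other groups. DMSO day 3 against day 1, Colo-205 and the line difference stayed at 0. For HT29 replicate numbers, 15 correlations of replicate deviations between groups ran from -0.0198 to 0.13, with 2 over 0.1. In 6 of 6 groups the largest positive correlation exceeded the largest negative one in size. These small values do not settle whether the numbers pair the arrays, and the main fit did not pair them. With the replicate block the counts were 10, 2 and 6 at days 1, 3 and 8, 1 and 1 for the changing drug effect, 0, 8 and 11 in DMSO cells, and 4 in PLX4720 cells over time. Dim probes limit NDUFA5, NDUFC2 and NDUFS1.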
